A study of Mus musculus with 12 samples.

Results

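The 10 genes described here, Gfap, Vim, Slc1a3, Slc1a2, Aqp4, Kcnj10, Gdf10, Hopx, Fabp7 and S100b, are used as markers of Bergmann glia and astrocytes, and were chosen by name among the 56941 genes counted in each cerebellar library. All 10 were among the 20341 genes with enough counts to be tested. Bulk RNA was sequenced from the cerebellum of 12 mice aged 16 weeks, with 3 mice in each of 4 groups. WT sedentary and SCA1 sedentary mice had no running wheel, and WT exercise and SCA1 exercise mice had a wheel in the cage for 12 weeks from 4 weeks of age. According to the study's methods, wheels were taken out before behavioural testing and tissue was collected after the last test. Running had thus stopped before the tissue was taken. SCA1 mice, labelled Het and given as Atxn1154Q/2Q in the design, were knock-in mice with an expanded CAG repeat in a single copy of their own Atxn1 gene, so the repeat is present in every cell and not in Purkinje cells or glia alone. Exercise mice were housed singly and sedentary mice in groups, so running and housing cannot be told apart. Mice of both sexes were used in the study. The labels do not give the sex of a mouse, and it is read below from chromosome Y genes. The question put to these genes was whether the SCA1 cerebellum showed more of the genes that astrocytes raise when reactive, or less of the genes with which glia support neurons, and whether either differed after exercise.

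Bergmann glia are the astrocytes of the cerebellar cortex. Their cell bodies lie beside those of Purkinje cells, and their fibres cross the molecular layer and wrap the synapses on Purkinje cell dendrites. They clear glutamate through the transporters encoded by Slc1a3 and Slc1a2, buffer potassium through the channel encoded by Kcnj10, and astrocytes move water through the channel encoded by Aqp4. In gliosis, a common response of astrocytes to injury or disease, the intermediate filaments encoded by Gfap and Vim usually increase. RNA of a whole cerebellum also holds velate astrocytes of the granular layer and fibrous astrocytes of white matter, and in such samples fewer cells of a type and less RNA per cell cannot be told apart.

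The libraries of 2 mice stood apart from the other 10 and are given separately throughout. The 6 brainstem markers (Hoxb5, Hoxa5, Hoxb3, Hoxb4, Hoxc4 and Slc6a5) summed to 214 CPM (counts per 1e6 counts of the library) in SCA1 sedentary mouse 16 and 179 CPM in SCA1 exercise mouse 55, against 30.7 to 56.1 CPM in the other libraries. Slc6a5 made up most of this sum in every library, at 184 and 144 CPM in mice 16 and 55 and 30.6 to 54.8 CPM elsewhere. Hoxb5 alone, a gene of the hindbrain and spinal cord, was at 8.33 and 9.92 CPM in mice 16 and 55. Elsewhere it was at most 0.97 CPM, in WT exercise mouse 201. The 6 oligodendrocyte markers summed to 7008 and 5590 CPM in mice 16 and 55 against 2511 to 4227 CPM, and the 7 granule cell markers to 2699 and 3484 CPM against 4595 to 5556 CPM. Read pairs that mapped to several places made up 6.38% and 6.33% of these libraries and 2.08% to 3.46% of the others. Reverse-strand counts ran from 20556802 to 32127508 per library. The summed log2 CPM of chromosome Y genes was −20.7 in WT exercise mouse 201 and −20.6 in SCA1 sedentary mouse 194. It was −18.7 and −20.0 in SCA1 exercise mice 55 and 122, and 23.6 to 29.6 in all other libraries. By this measure these mice were female, every WT sedentary mouse was male, and sex was not balanced over the groups. The labelled tissue had its markers in all 12 libraries, with 4886 to 9175 CPM for the 9 Purkinje cell genes, and 3 of the 5 forebrain markers passed the filter, with a sum of at most 7.45 CPM for all 5. Atxn1, which carries the knock-in, was at 148 to 170 CPM in WT and 147 to 193 CPM in SCA1 mice, a sum over both alleles.

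None of the 10 genes passed the test in any of the 4 comparisons between groups. A gene was called where edgeR's quasi-likelihood test, in 1 model of the 4 groups, gave an absolute log2FC above 0.5 and a p below 0.05 after Benjamini-Hochberg adjustment over all genes. In SCA1 sedentary against WT sedentary mice 0 of 10 members were called, where 0.0344% of all tested genes were, and 4 members had an unadjusted p under 0.05, all lower in SCA1 mice. The share of all tested genes with such a p was 4.55% in that direction and 5.55% in the other. In SCA1 exercise against WT exercise mice 0 of 10 members were called (0% of all genes), and 0 had an unadjusted p under 0.05, against 1.45% of all genes that were higher and 1.48% that were lower. In WT exercise against WT sedentary mice 0 of 10 were called (0% of all genes), and 0 had an unadjusted p under 0.05, against 2.78% higher and 1.91% lower. In SCA1 exercise against SCA1 sedentary mice 0 of 10 were called (0% of all genes), and 1, Gdf10, had an unadjusted p under 0.05 and was higher, as did and were 1.19% of all genes, while 0.978% were lower. DESeq2 also called 0 members in each of these comparisons.

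Gfap (ENSMUSG00000020932; chromosome 11 of GRCm39 from 102778159 to 102791738, minus strand) encodes the intermediate filament protein whose increase defines gliosis. The 250 bases before the start of its canonical transcript are shown because Gfap is the gene on which a reading of gliosis turns. They held none of the motifs searched (given with Gdf10 and Slc1a3). That start lies inside the span of the gene, and other starts were not searched. The 250 bases are at chr11:102788186-102788435 of GRCm39 and are written 5′ to 3′ on the strand of the gene.
Gfap upstream: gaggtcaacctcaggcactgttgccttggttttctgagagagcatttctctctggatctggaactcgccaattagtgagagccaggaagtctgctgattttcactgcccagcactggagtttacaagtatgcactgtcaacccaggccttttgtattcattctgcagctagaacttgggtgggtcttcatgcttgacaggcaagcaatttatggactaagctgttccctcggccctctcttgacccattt
Gfap was at 164, 133 and 127 CPM in the WT sedentary mice and 106, 100.4 and 119.7 CPM in the WT exercise mice. In SCA1 sedentary mice it was at 272 CPM in mouse 16, and at 104 and 95.5 CPM in mice 194 and 195. In SCA1 exercise mice it was at 237 CPM in mouse 55, and at 91.2 and 118 CPM in mice 122 and 198. Mice 16 and 55 were thus the only libraries above the WT range, and the other 4 SCA1 libraries lay below every WT sedentary library. In SCA1 sedentary against WT sedentary mice the log2FC was 0.15 (standard error 0.39, adjusted p = 0.925, edgeR), and it was −0.48 (standard error 0.12, adjusted p = 0.0701, edgeR) when mice 16 and 55 were left out.

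The Gfap levels of mice 16 and 55 went with those of the brainstem and oligodendrocyte markers. Fibrous astrocytes of the brainstem and white matter express Gfap strongly, and the contribution of such tissue to the Gfap level of these libraries was not tested. Over all 12 libraries the coefficient of variation of Gfap CPM was 41.6%, and over the 10 other libraries 18.8%. The same measure was 31.2% and 9.36% for Kcnj10, and 20.9% and 8.17% for Slc1a2.

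**Figure D1:**
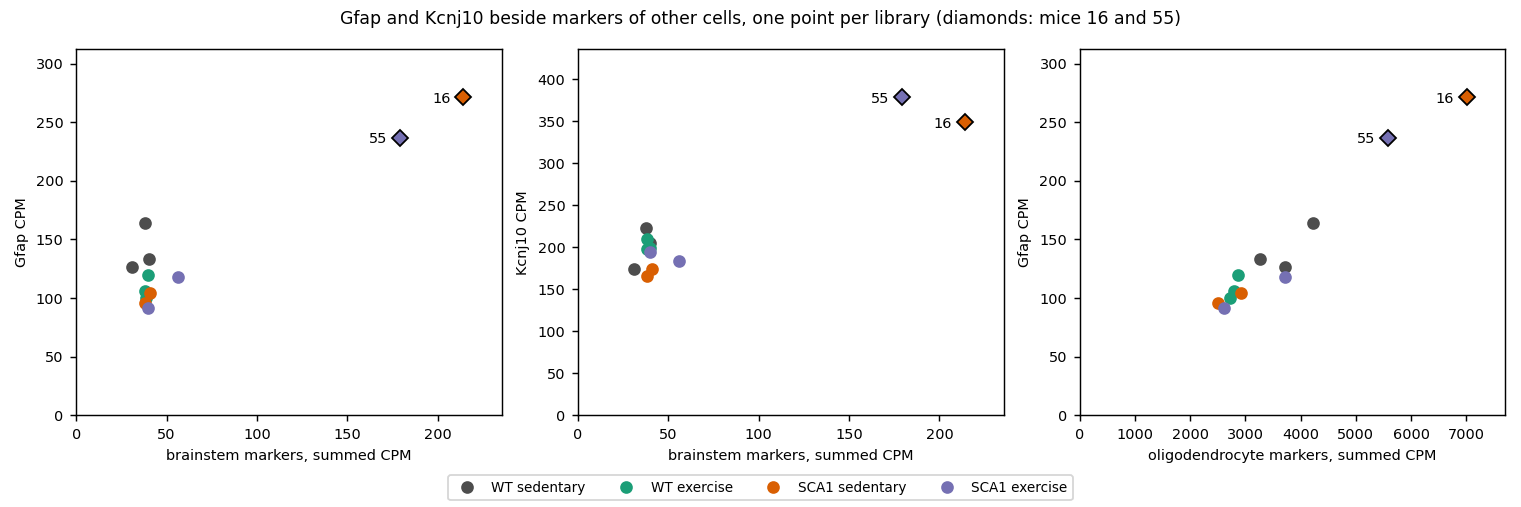
CPM of Gfap (left and right) and Kcnj10 (middle) in each of the 12 libraries (vertical axes) against the summed CPM of the brainstem markers (left, middle) or the oligodendrocyte markers (right); each point is 1 library coloured by group, and diamonds are mice 16 and 55. These 2 libraries had 214 and 179 CPM of brainstem markers and the highest Gfap and Kcnj10 levels, and the other 10 libraries lay together at low marker levels. Slc6a5 made up most of the brainstem sum in every library.

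Vim (ENSMUSG00000026728; chromosome 2 from 13578738 to 13587639) encodes vimentin, the filament protein that Bergmann glia keep in the adult and that is also found in endothelium, ependyma and meninges. It was at 127, 109 and 110.4 CPM in WT sedentary mice and at 94, 105 and 101 CPM in SCA1 sedentary mice. With exercise it was at 122, 131 and 117 CPM in WT and at 116, 101 and 111 CPM in SCA1 mice. Every SCA1 library was below every WT library of the same activity, in both pairs of groups, whereas Gfap showed no such separation. Of all genes, 5.76% were lower in this way between sedentary groups and 6.92% between exercise groups. The log2FC was −0.21 (standard error 0.09, adjusted p = 0.486, edgeR) between sedentary groups, and −0.18 (adjusted p = 0.960, edgeR) between exercise groups. Averaged over activity it was −0.19 (standard error 0.07, adjusted p = 0.372, edgeR). Vim had the smallest coefficient of variation of the 10 genes over the 12 libraries, 9.90%, and mice 16 and 55, at 94 and 116 CPM, were not high.

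A list of reactive astrocyte genes was fixed for this purpose (38 genes, among them Serpina3n, Cd44, Osmr, Gbp2 and Stat3). Its genes Lcn2, Cxcl10, Tgm1, Ptx3 and Slc10a6 had too few counts to be tested, with Lcn2 at 0 to 0.78 CPM. No tested gene of the list was called by edgeR in any comparison, with all 12 libraries or without mice 16 and 55. Of its 33 tested genes, 26 were higher and 7 lower in the SCA1 sedentary group relative to the WT sedentary group, 4 and 1 of them with an unadjusted p under 0.05 (5.55% and 4.55% of all genes). The median log2FC was 0.22, against 0.02 over all tested genes. With mice 16 and 55 left out, 20 were higher and 13 lower, 2 and 4 of them with such a p, and the median was 0.10. The share of all genes that were lower with such a p was then 9.51%. The genes with the smallest p were Fkbp5, a glucocorticoid-induced chaperone (log2FC 0.77, adjusted p = 0.321, edgeR), and H2-T23, a class I histocompatibility gene (0.56, adjusted p = 0.432, edgeR), on the higher side. On the lower side they were B3gnt5, a glycosyltransferase of lipid glycans (−0.89, adjusted p = 0.189, edgeR), and H2-D1, also of class I (−0.18, adjusted p = 0.588, edgeR). Serpina3n, a protease inhibitor that reactive astrocytes make, was named after its values were seen: it was at 14.97 CPM in mouse 16 and 7.18 CPM in mouse 55 and at 1.34 to 2.83 CPM in the other 10 libraries.

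Slc1a3 (ENSMUSG00000005360; chromosome 15 from 8663604 to 8741595, minus strand) encodes GLAST, the main glutamate transporter of Bergmann glia. It was at 874, 909.6 and 788 CPM in WT sedentary mice and at 635, 674 and 705 CPM in SCA1 sedentary mice, with no overlap. In WT exercise mice it was at 906, 859 and 809 CPM and in SCA1 exercise mice at 854, 824 and 684 CPM, and these groups overlapped. The mouse with the lowest level was mouse 16, the library with the highest Gfap, and the difference did not depend on it. In the sedentary comparison its log2FC was −0.35 (standard error 0.11, adjusted p = 0.322, edgeR), a level of 0.783 of WT, and −0.30 (adjusted p = 0.146, edgeR) without mice 16 and 55. It was −0.12 (adjusted p = 0.960, edgeR) between exercise groups, and −0.24 (adjusted p = 0.366, edgeR) averaged over activity. Slc1a3 ranked 550 of 20341 genes by p in the sedentary comparison, the highest place of the 10. A predicted transcript model, Gm37310, overlaps it on the same strand and was counted separately, and reads that fell on both genes were counted on neither.

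Slc1a2 (ENSMUSG00000005089; chromosome 2 from 102488574 to 102621129) encodes GLT-1, the glutamate transporter that most astrocytes use. It was at 1290.1, 1392 and 1262 CPM in WT sedentary and 1409, 1335 and 1299 CPM in WT exercise mice. It was at 2053, 1069 and 1192 CPM in SCA1 sedentary mice 16, 194 and 195, and at 1911, 1349 and 1191 CPM in SCA1 exercise mice 55, 122 and 198. Mice 16 and 55 were again the highest of all, while both other SCA1 sedentary libraries were below every WT sedentary library. Without exercise, SCA1 against WT mice gave a log2FC of 0.13 (adjusted p = 0.885, edgeR), and −0.20 (adjusted p = 0.261, edgeR) without mice 16 and 55.

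The balance of the 2 transporters was read as the number of read pairs on Slc1a2 for each read pair on Slc1a3 in the same library. It was 1.48, 1.53 and 1.60 in WT sedentary, and 1.56, 1.55 and 1.61 in WT exercise mice. It was 3.23 in mouse 16 and 2.24 in mouse 55, and 1.59, 1.69, 1.64 and 1.74 in the other SCA1 mice. The SCA1 and WT ranges thus overlapped between sedentary mice and did not between exercise mice, with or without mice 16 and 55. The mean difference in log2 ratio was 0.42 between SCA1 and WT sedentary mice (exact permutation p = 0.2, two-sided), and 0.09 without mouse 16 (exact permutation p = 0.3). Between the exercise groups it was 0.24 (exact permutation p = 0.1, the smallest that 3 mice against 3 allow). Without mouse 55 it was 0.10 (exact permutation p = 0.1, also the smallest that 2 mice against 3 allow).

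The other 19 genes of glutamate uptake and recycling were also without a call. In SCA1 sedentary mice 13 were higher and 6 lower than in WT sedentary mice, with a median log2FC of 0.06, and without mice 16 and 55, 3 were higher and 16 lower, with a median of −0.14. Slc1a6, which encodes the glutamate transporter of Purkinje cells and not of glia, had the smallest p (log2FC −0.46, adjusted p = 0.231, edgeR), and Gria4, an AMPA receptor subunit found in Bergmann glia and granule cells, followed (−0.26, adjusted p = 0.503, edgeR). Slc6a11, a GABA transporter of astrocytes, was at 335 and 193 CPM in mice 16 and 55 and at 42.1 to 103 CPM in the other libraries. Its log2FC was 0.98 (adjusted p = 0.659, edgeR) with these mice and −0.42 (adjusted p = 0.332, edgeR) without them. Slc7a11, the cystine and glutamate exchanger, had a log2FC of 0.38 (adjusted p = 0.664, edgeR). Glul, the glutamine synthetase of astrocytes, was named after its values were seen: it was at 1227 and 1139.5 CPM in mice 16 and 55 and at 649 to 910.2 CPM elsewhere.

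Kcnj10 (ENSMUSG00000044708; chromosome 1 from 172168765 to 172201652) encodes the inward rectifier Kir4.1, the main potassium channel of astrocytes, which oligodendrocytes also express. It was at 222, 205 and 174 CPM in WT sedentary and 209.7, 198 and 199 CPM in WT exercise mice. It was at 349, 174 and 166 CPM in SCA1 sedentary mice 16, 194 and 195, and at 379, 194 and 183 CPM in SCA1 exercise mice 55, 122 and 198. Only mice 16 and 55 were above the WT range. Both remaining SCA1 sedentary libraries were below the lowest WT sedentary library by less than the spread of that group. Between sedentary groups the log2FC was 0.19 (standard error 0.30, adjusted p = 0.866, edgeR), and −0.22 (standard error 0.10, adjusted p = 0.225, edgeR) without mice 16 and 55.

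Aqp4 (ENSMUSG00000024411; chromosome 18 from 15522451 to 15544039) encodes the water channel of astrocyte end-feet. It was at 336, 319.6 and 253 CPM in WT sedentary mice and at 291, 175 and 240.5 CPM in SCA1 sedentary mice. In WT exercise mice it was at 285, 271 and 277 CPM, and in SCA1 exercise mice at 318, 253 and 286 CPM. The sedentary groups overlapped through mouse 16, and the exercise groups overlapped fully. In the sedentary comparison its log2FC was −0.36 (standard error 0.17, adjusted p = 0.502, edgeR), and −0.53 (standard error 0.14, adjusted p = 0.0737, edgeR) without mice 16 and 55. Mouse 194 had the lowest level of all, and without it alone the log2FC was −0.20, whereas it was −0.55 without mouse 16 alone. Between exercise groups it was 0.04 (adjusted p = 0.985, edgeR). The difference between these differences, the interaction of genotype and exercise, was 0.40 on the log2 scale (standard error 0.24, adjusted p = 1.00, edgeR), and 0.24 without mouse 194. Of the SCA1 groups, the exercise group was at a log2FC of 0.28 against the sedentary group, which became 0.11 without mouse 194 and 0.46 without mouse 16.

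The further 16 genes of potassium, water and gap junction coupling also gave 0 calls with edgeR on the 12 libraries. In SCA1 sedentary mice 9 were higher and 7 lower, with a median log2FC of 0.01. In the 10 other libraries, 5 were higher and 11 lower, 1 and 3 of them with an unadjusted p under 0.05. The share of all genes that were lower with such a p was then 9.51%. The median of the 16 genes was −0.11, and the smallest adjusted p was 0.0506 (edgeR), again with 0 calls. With all 12 libraries the only one with an unadjusted p under 0.05 was Kcnk2, a potassium leak channel (0.56, adjusted p = 0.250, edgeR). Slc4a4, a bicarbonate transporter of Bergmann glia, and Kcnk1, a potassium leak channel, were at −0.18 and −0.17 (adjusted p = 0.570 and 0.630, edgeR). Gja1, the connexin that couples astrocytes, was named after its values were seen: it was at 203, 191 and 158 CPM in WT sedentary mice, 126 and 133 CPM in SCA1 sedentary mice 194 and 195, and 215 CPM in mouse 16.

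Gdf10 (ENSMUSG00000021943; chromosome 14 from 33645273 to 33659940, plus strand) encodes a secreted factor of the transforming growth factor family, and in the cerebellum it is largely a marker of Bergmann glia. Slc1a3 and Gdf10 were the members with the smallest p between the sedentary groups, so the sequence before the Gdf10 start and a short stretch before the Slc1a3 start are shown. The Gdf10 window is chr14:33645023-33645272 of GRCm39, 250 bases on the plus strand, with the match to the RBPJ motif in capitals.
Gdf10 upstream: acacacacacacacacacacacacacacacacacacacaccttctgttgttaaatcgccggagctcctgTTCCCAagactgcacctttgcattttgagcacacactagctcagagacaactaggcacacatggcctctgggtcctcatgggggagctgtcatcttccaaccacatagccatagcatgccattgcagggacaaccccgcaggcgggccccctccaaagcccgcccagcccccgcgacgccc
The Slc1a3 stretch is chr15:8740369-8740397 of GRCm39 on the minus strand, with the match to the STAT motif in capitals.
Slc1a3 upstream: ttcaggatccTTCCAAGAAatttcagtta
The match lies 111 to 103 bases before the start of the canonical transcript in Slc1a3, and 181 to 176 bases before that start in Gdf10. In Slc1a3 this start is inside the span of the gene.

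The motifs were searched on both strands of the 250 bases before the start of the canonical transcript in GENCODE M39, and an overlap between motifs was allowed. RBPJ, through which Notch receptors act, was searched as TGGGAA, which was present in 3 of the 10 members (Gdf10, Fabp7 and S100b) and in 22.7% of 21770 promoters. STAT, through which cytokines raise Gfap, was searched as TTCNNNGAA, which 1 member (Slc1a3) and 7.7% of promoters held. The Capicua motifs TGAATGAA and TGAATGGA, bound by a partner of ataxin-1, were in 0 members and in 1.22% and 0.914% of promoters. The GLI motif GACCACCCA of Hedgehog signals was in 0 members and 0.188% of promoters, and TTGGCA, a part of the NFI site, in 0 members and 12.3% of promoters. A match is a run of letters and not a measured binding site, and a missing match says only that these letters are not in this window.

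Gdf10 was at 130.4, 127 and 94.4 CPM in WT sedentary mice and at 63.6, 94.2 and 82.1 CPM in SCA1 sedentary mice. With exercise it was at 145, 119 and 119 CPM in WT mice and at 146, 115 and 76.4 CPM in SCA1 mice 55, 122 and 198. The sedentary groups did not overlap, though mouse 194, at 94.2 CPM, was just under WT mouse 192, at 94.4 CPM, and the exercise groups overlapped. Without exercise, SCA1 against WT mice gave a log2FC of −0.55 (standard error 0.22, adjusted p = 0.421, edgeR), the largest of the 10 in size. It was −0.39 (adjusted p = 0.223, edgeR) without mice 16 and 55. For the SCA1 exercise group against the SCA1 sedentary group it was 0.49 (standard error 0.22, adjusted p = 0.999, edgeR), a level 1.41 times that of sedentary SCA1 mice. Mouse 16 was the lowest and mouse 55 the highest of all 12 libraries for this gene, and without both the log2FC between SCA1 groups was 0.12 (adjusted p = 0.853, edgeR), while without mouse 55 alone it was 0.27. Averaged over activity, the log2FC of genotype was −0.37 (adjusted p = 0.472, edgeR).

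Hopx (ENSMUSG00000059325; chromosome 5 from 77234831 to 77263022) encodes a homeodomain protein that does not bind DNA and is expressed in Bergmann glia. It was at 77.7, 66.7 and 61.3 CPM in WT sedentary and at 57.1, 52.2 and 41.4 CPM in SCA1 sedentary mice. With exercise it was at 59.2, 50.4 and 59.4 CPM in WT and at 81.3, 55.2 and 44.3 CPM in SCA1 mice. Both the SCA1 sedentary and the WT exercise libraries were all below the WT sedentary libraries, and these comparisons share the WT sedentary mice. Between sedentary groups the log2FC was −0.45 (standard error 0.20, adjusted p = 0.472, edgeR), and −0.53 (adjusted p = 0.0738, edgeR) without mice 16 and 55. The interaction was 0.55 (adjusted p = 1.00, edgeR), 0.36 (adjusted p = 0.402, edgeR) without those mice, and 0.28 without mouse 55 alone. The log2FC between the SCA1 groups was 0.26, and it was 0.0013 without mouse 55 and 0.43 without mouse 198. A noncoding gene on the opposite strand, Hopxos, overlaps it, and the kit and the counts used keep the strands apart.

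Fabp7 (ENSMUSG00000019874; chromosome 10 from 57660956 to 57664554) encodes the brain lipid-binding protein of radial glia, which Bergmann glia retain. It was at 11.4, 9.70 and 12.3 CPM in WT sedentary and 8.19, 7.76 and 8.53 CPM in WT exercise mice. In SCA1 mice it was at 15.1, 9.34 and 7.89 CPM when sedentary and at 9.01, 6.38 and 12.6 CPM with exercise, and both SCA1 groups overlapped both WT groups. Each value rested on 153 to 429 read pairs. Between sedentary groups its log2FC was −0.04 (adjusted p = 0.972, edgeR).

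S100b (ENSMUSG00000033208; chromosome 10 from 76085090 to 76097159) encodes a calcium-binding protein of astrocytes, Bergmann glia and some oligodendrocytes. It was at 263, 228 and 208 CPM in WT sedentary and 204, 196 and 200.01 CPM in WT exercise mice, with no overlap. It was at 274, 197 and 189 CPM in SCA1 sedentary and 251, 202 and 216 CPM in SCA1 exercise mice, with mice 16 and 55 the highest of their groups. In the sedentary comparison its log2FC was −0.08 (adjusted p = 0.888, edgeR), and −0.25 (adjusted p = 0.161, edgeR) without mice 16 and 55. It overlaps Dip2a on the opposite strand.

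**Figure D2:**
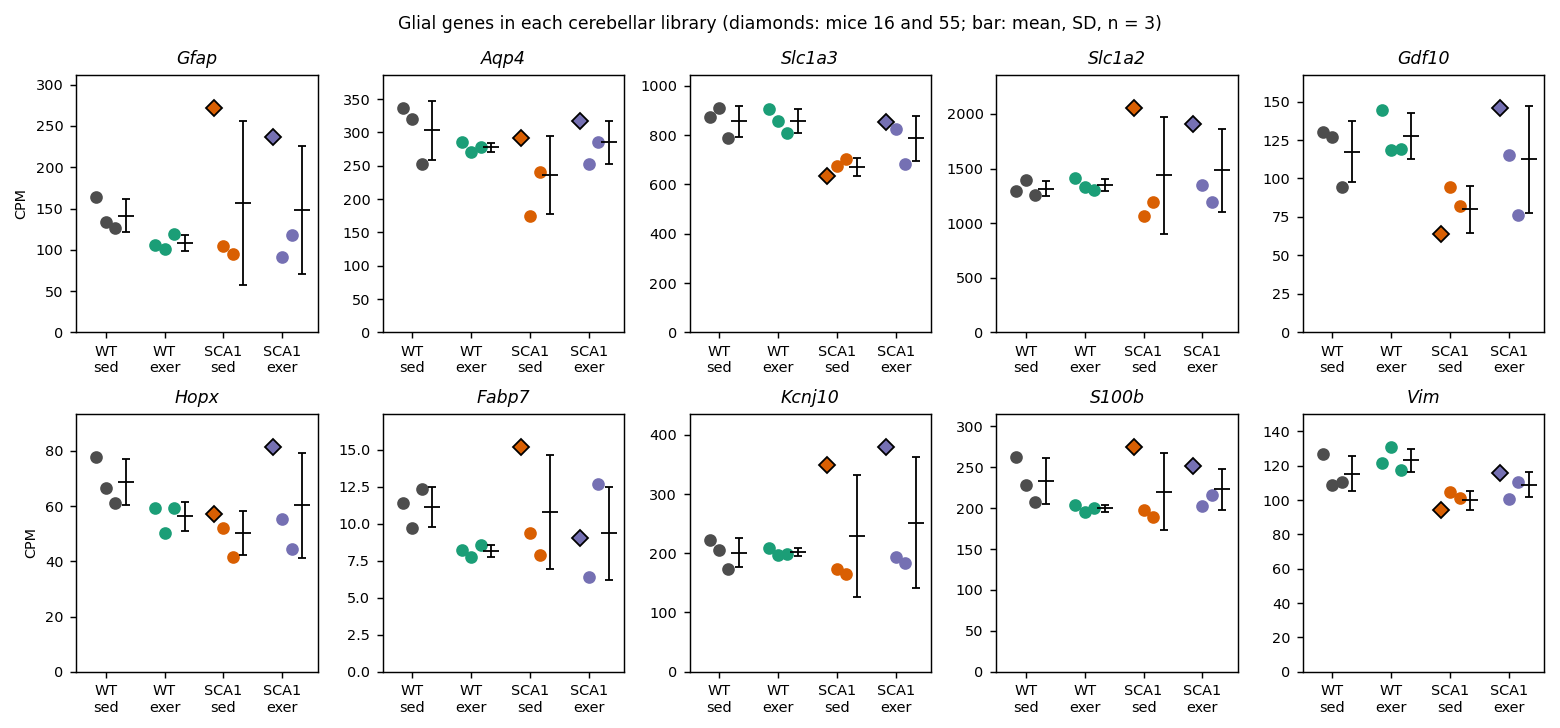
CPM of each of the 10 genes (vertical axes, from 0) in the 3 libraries of each group, with diamonds for SCA1 sedentary mouse 16 and SCA1 exercise mouse 55, and a bar for the mean and SD (n = 3). Mice 16 and 55 were far above the other libraries for Gfap, Slc1a2 and Kcnj10 and not for Slc1a3, Gdf10 or Vim.

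Per kilobase of annotated exon, which allows the levels of different genes to be set side by side, S100b and Slc1a2 were the most expressed of the 10, with medians of 103 and 94.1 CPM per kb over the 12 libraries. Their ranges, 94.5 to 137 and 76.4 to 147 CPM per kb, overlapped. Slc1a3 followed at a median of 55.9, Aqp4 at 42.9 and Kcnj10 at 36.6 CPM per kb. Hopx, Vim, Gdf10 and Gfap lay close together at medians of 26.2, 23.2, 21.3 and 20.8 CPM per kb, and Fabp7 was lowest at 7.17 CPM per kb. Exon lengths were summed over all annotated transcripts, so a gene with long rare transcripts has a lower value.

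Considered as a list, the number of members that were lower in SCA1 sedentary mice depended on mice 16 and 55. With all 12 libraries 7 of 10 had a negative log2FC in SCA1 sedentary against WT sedentary mice, with a median of −0.14 against 0.02 over all tested genes. In 4 of them, Slc1a3, Gdf10, Hopx and Vim, every SCA1 sedentary library was below every WT sedentary library, where 5.76% of all genes were, and in 0 was every one above (5.6% of all genes). Without mice 16 and 55 the log2FC was negative in 10 of 10, with a median of −0.32, and 7 had an unadjusted p under 0.05, where 9.51% of all 20494 genes then tested had such a p and were lower. Still 0 of 10 were called (1% of all genes), and the smallest adjusted p was 0.0701 (edgeR), for Gfap.

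Markers of other cells also differed between the sedentary groups, and for some lists the direction depended on mice 16 and 55. With all 12 libraries, 9 of 9 Purkinje cell markers had an unadjusted p under 0.05 and were lower in SCA1 sedentary mice, and 2, Calb1 and Pcp4, were called (log2FC −0.82 and −1.17, adjusted p = 0.0398 and 0.0126, edgeR). When mice 16 and 55 were left out, 9 of 9 still had such a p and were lower, and 6 were called (median log2FC −0.63). The 7 granule cell markers were all lower, 5 with such a p (median −0.49), and without those mice 6 of 7 were lower, 3 with such a p (median −0.33). The 9 Purkinje cell markers summed to 4886 to 6533 CPM in SCA1 sedentary and 8109 to 9175 CPM in WT sedentary mice. Of all genes, 4.55% had such a p and were lower with all 12 libraries, and 9.51% without mice 16 and 55. With all 12 libraries, 6 of 6 oligodendrocyte markers (median log2FC 0.10) and 5 of 5 oligodendrocyte precursor markers (median 0.35) were higher in SCA1 sedentary mice. Of the 8 microglial markers, 4 were higher and 4 lower (median −0.01). None of these glial markers then had such a p. Without mice 16 and 55, 6 of 6 oligodendrocyte markers (median log2FC −0.45), 6 of 8 microglial markers (median −0.39) and 3 of 5 oligodendrocyte precursor markers (median −0.46) had an unadjusted p under 0.05 and were lower, beside the glial members. The 6 oligodendrocyte markers summed to 2511 and 2925 CPM in SCA1 sedentary mice 195 and 194, and to 3261 to 4227 CPM in WT sedentary mice. The 6 endothelial markers had a median of 0.13 and 0 with such a p. Choroid plexus markers summed to 12.9 to 407 CPM in WT sedentary and to 14.2 to 1166 CPM in SCA1 sedentary mice. With all 12 libraries, 5 of 6 meninges and fibroblast markers were higher in SCA1 sedentary mice (median 0.49). Such a p was seen in 2 of them, and 5.55% of all genes were higher with one.

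Such markers also moved in the exercise comparisons. In WT exercise against WT sedentary mice, the choroid plexus markers summed to 818 to 1913 CPM against 12.9 to 407 CPM, and 5 of 6 had an unadjusted p under 0.05 and were higher (median log2FC 3.17). Microglial markers summed to 93.1 to 98.6 CPM against 109 to 124 CPM and all 8 were lower, 1 with such a p, or 5 without mice 16 and 55. All 6 oligodendrocyte markers were lower too (median −0.45), 0 with such a p, or 6 without those mice. In the SCA1 exercise group against the SCA1 sedentary group, 9 of 9 Purkinje cell markers were higher, 5 with such a p (median 0.36), and 6 of 7 granule cell markers, 0 with such a p (median 0.25). Leaving out mice 16 and 55, these were 9 of 9, 4 with such a p (median 0.13), and 5 of 7, 1 with such a p (median 0.20). The interaction of genotype and exercise, without mice 16 and 55, was positive with such a p for 6 of 6 oligodendrocyte markers (median 0.64) and 5 of 8 microglial markers (median 0.54), and negative with such a p for 5 of 6 choroid plexus markers (median −3.19). Between WT groups 2.78% of all genes were higher and 1.91% lower with such a p, and 6.8% were lower without mice 16 and 55. Between SCA1 groups 1.19% were higher with such a p, and 3.69% without those mice. The interaction was positive with such a p in 6.86% of all genes without them. The part of these cells in the members' differences was not tested.

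**Figure D3:**
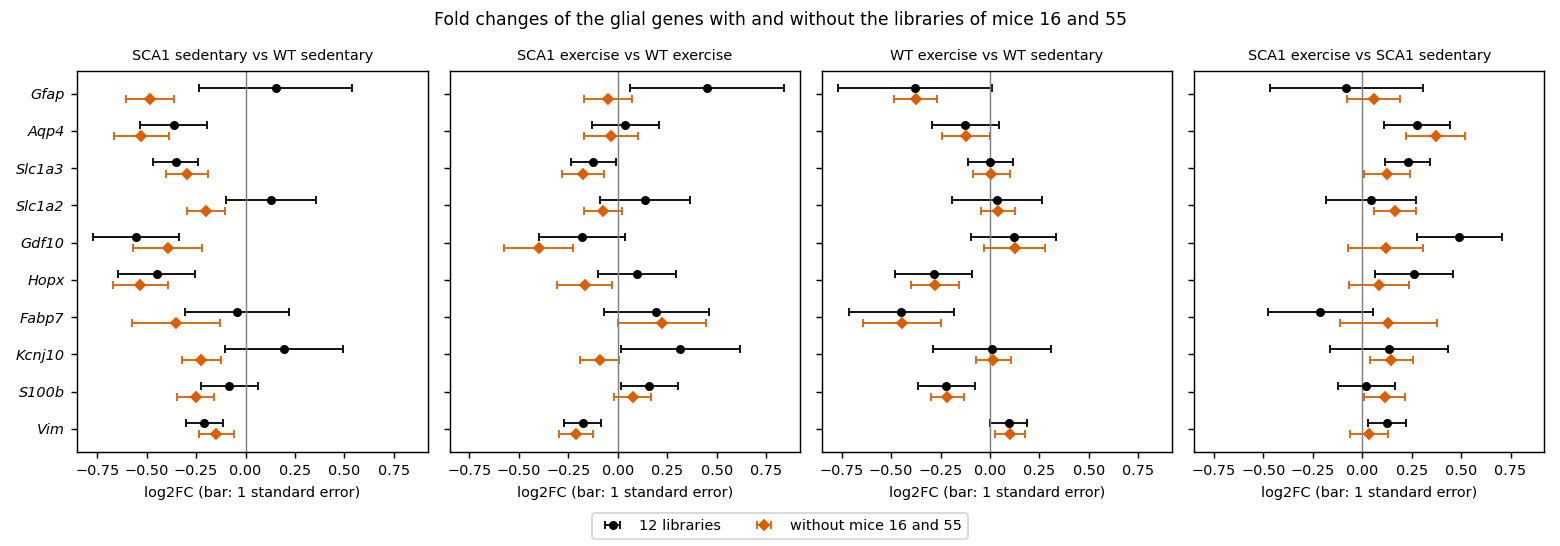
log2FC of the 10 genes (points) with 1 standard error (bars) in 4 comparisons, from edgeR on the 12 libraries (black circles) and without mice 16 and 55 (orange diamonds); the vertical line marks no difference. In the sedentary comparison at the left, all 10 diamonds are below 0, while Gfap, Slc1a2 and Kcnj10 have circles above 0.

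No member passed the test between the WT exercise and WT sedentary groups, though some members did not overlap. In 4 members, Gfap, Hopx, Fabp7 and S100b, every WT exercise library was below every WT sedentary library, where 11.1% of all genes were, and in 0 was every one above (10.1% of all genes). The log2FC was −0.38 for Gfap, −0.28 for Hopx, −0.45 for Fabp7 and −0.22 for S100b (adjusted p = 0.958 for each, edgeR). With the smaller spread of the fit without mice 16 and 55, which took no WT library away, these 4 had an unadjusted p under 0.05, where 6.8% of all genes did and were lower, and adjusted p of 0.185 to 0.358 (edgeR), and again 0 of 10 were called (0.312% of all genes). Slc1a3, Slc1a2 and Kcnj10 were at log2FC 0.00, 0.04 and 0.01, with standard errors of 0.11, 0.23 and 0.30. The oligodendrocyte markers, at 2715 to 2860 CPM in WT exercise and 3261 to 4227 CPM in WT sedentary mice, separated in the same direction, and their part in the result was not tested.

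In SCA1 mice no member separated the exercise from the sedentary group (2.43% of all genes had every exercise library higher and 2.07% every one lower). The log2FC was positive in 8 of 10, with a median of 0.13 against −0.01 over all genes, and Aqp4, Slc1a3, Hopx and Gdf10 were at 0.28, 0.23, 0.26 and 0.49. Without mice 16 and 55, which leaves 2 mice in each group, it was positive in 10 of 10, with a median of 0.12, and Aqp4 had the only unadjusted p under 0.05 (log2FC 0.37, adjusted p = 0.565, edgeR; 3.69% of all genes were higher with such a p). This comparison and that of SCA1 sedentary with WT sedentary mice share the SCA1 sedentary libraries, so opposite signs in them are not separate observations. In SCA1 exercise against WT exercise mice 7 of 10 had a positive log2FC with all libraries and 2 of 10 without mice 16 and 55, when Gdf10 and Vim had an unadjusted p under 0.05 and were lower (4.17% of all genes) and 0 were called (0.181% of all genes). Vim alone was below the WT range in every SCA1 exercise library (6.92% of all genes). No member had every library above (7.32% of all genes).

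Averaged over activity, 0 of 10 members were called for genotype (0.118% of all genes), and 3, Slc1a3, Gdf10 and Vim, had an unadjusted p under 0.05 and were lower (4.25% of all genes; 5.56% were higher). Without mice 16 and 55, 7 had such a p and were lower (5.57% of all genes), with a median log2FC of −0.21, and 0 were called (0.693% of all genes). Averaged over genotype, 0 of 10 were called for exercise (0% of all genes) and 0 had such a p, against 2.16% of all genes higher and 1.39% lower. The interaction of genotype and exercise was positive in 10 of 10, with a median of 0.24 on the log2 scale, and 0 of 10 were called (0% of all genes) or had an unadjusted p under 0.05, against 1.57% of all genes higher and 2.21% lower. Without mice 16 and 55 it was positive in 8 of 10, and Gfap, Aqp4 and S100b had such a p (6.86% of all genes were higher with one). The interaction contains both of the differences above, so its sign follows from theirs. DESeq2 called 0 members in each of these as well.

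Slc1a3 and Gdf10 moved together from library to library. The Pearson correlation of their log2 CPM was 0.93 over the 12 libraries and 0.92 over the 10 without mice 16 and 55. Gfap went with S100b (0.92 and 0.89) and with Kcnj10 (0.91 and 0.51), and Slc1a2 with Kcnj10 (0.95 and 0.71). Gfap and Slc1a3, in contrast, had a correlation of −0.14 over 12 and 0.33 over 10 libraries. Libraries share tissue composition and depth, and these values describe 45 pairs of genes without a test.

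Among 11132 genes with a mean log2 CPM of at least 3, those most like Gfap over the 12 libraries were Slc6a9 (Pearson's r 0.99), a glycine transporter of astrocytes, Ppp1r3c (0.98), a glycogen-targeting subunit of a phosphatase, and Gjb1 (0.98), the connexin of oligodendrocytes. Those most like Slc1a3 were Fam107b (0.97), Gpr63 (0.96) and Car8 (0.96), the last of them a Purkinje cell gene. Those most like Gdf10 were Dap (0.93), Etnppl (0.93), an enzyme of astrocyte lipid metabolism, and Mtss1 (0.92), which shapes membranes in Purkinje cells. Those most like Vim were Eomes (0.89), a factor of unipolar brush cells, Aqp6 (0.88) and Oma1 (0.87). Without mice 16 and 55, r in the order given was 0.95, 0.91 and 0.94 for Gfap and 0.97, 0.95 and 0.95 for Slc1a3. It was 0.86, 0.89 and 0.88 for Gdf10 and 0.87, 0.83 and 0.89 for Vim. These genes were picked for the highest r of the 11132, and their likeness was not tested.

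**Figure D4:**
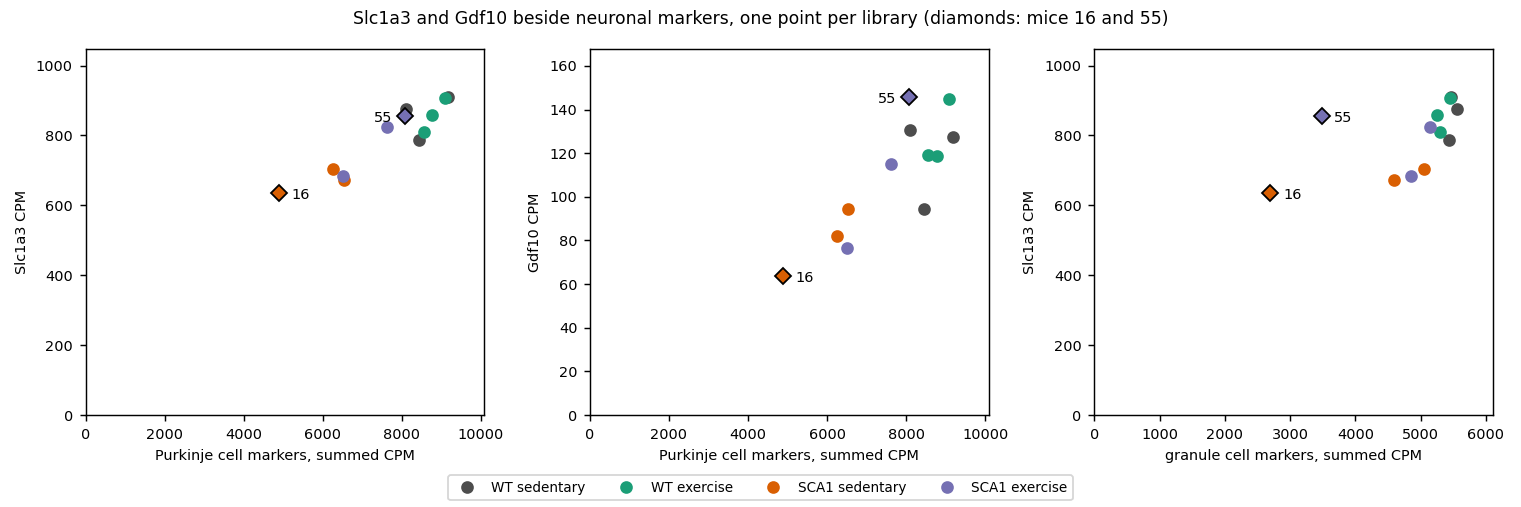
CPM of Slc1a3 (left, right) and Gdf10 (middle) in each library (vertical axes) against the summed CPM of Purkinje cell markers (left, middle) or granule cell markers (right), coloured by group with diamonds for mice 16 and 55. Mouse 16 had the lowest Slc1a3, Gdf10 and Purkinje cell levels, and mouse 55 lay close to the WT libraries for Slc1a3, Gdf10 and the Purkinje cell markers but not for the granule cell markers.

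Of 30 further astrocyte genes, 0 were called in any comparison with edgeR. In SCA1 sedentary against WT sedentary mice 15 were higher and 15 lower, with a median log2FC of 0.00. An unadjusted p under 0.05 was reached by 0 and 6 of them (5.55% and 4.55% of all genes). Without mice 16 and 55, 4 were higher and 26 lower, with 0 and 12 at such a p and a median of −0.24. The share of all genes that were lower with such a p was then 9.51%. The smallest adjusted p in this list was 0.0506 (edgeR). The lower genes with the smallest p in the 12 libraries were Dao, a D-amino acid oxidase of Bergmann glia (59.2 ± 4.83 CPM in WT sedentary and 45.4 ± 0.489 CPM in SCA1 sedentary mice, SD, n = 3), and S1pr1, a receptor for sphingosine 1-phosphate (113 ± 12.5 and 88.9 ± 10.1 CPM, SD, n = 3). Their log2FC were −0.38 and −0.34 (adjusted p = 0.238 and 0.354, edgeR). On the higher side Slc6a11, given above, had an adjusted p of 0.659 (edgeR).

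Purkinje cells signal to Bergmann glia through Sonic hedgehog and through Notch ligands such as the one encoded by Dner. None of the 26 genes of these signals was called with edgeR on the 12 libraries. Notch2, a Notch receptor, was at 49.4, 50.6 and 55.1 CPM in WT sedentary mice and at 89.3, 83.9 and 70.5 CPM in SCA1 sedentary mice. With exercise it was at 76.3, 75.1 and 76.9 CPM in WT and at 90.4, 65.2 and 61.3 CPM in SCA1 mice. The WT sedentary group was thus below each of the other groups, without overlap, and the comparisons with it share those 3 libraries. Of all genes, 5.6% had every SCA1 sedentary library above the WT sedentary ones, and 10.1% every WT exercise library. Without exercise, SCA1 against WT mice gave a log2FC of 0.65 (standard error 0.14, adjusted p = 0.1498, edgeR), and 0.60 (adjusted p = 0.00899, edgeR) without mice 16 and 55, where it was called, as were 1% of all genes. For WT mice with exercise against those without, it was 0.56 (adjusted p = 0.497, edgeR), and 0.56 (adjusted p = 0.0168, edgeR) without mice 16 and 55, also called, as were 0.312% of all genes.

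Dner was at 446, 517 and 466 CPM in WT sedentary mice and at 351, 369 and 320.3 CPM in SCA1 sedentary mice, without overlap. Its log2FC was −0.46 (adjusted p = 0.242, edgeR), and −0.45 (adjusted p = 0.0495, edgeR) without mice 16 and 55, where its size kept it under the limit of 0.5. Jag1, another Notch ligand, and Boc, a Hedgehog co-receptor, had log2FC of 0.55 and −0.26 (adjusted p = 0.422 and 0.673, edgeR). Over the 26 genes 16 were higher and 10 lower in SCA1 sedentary mice, with a median of 0.04. Gli1 and Ptch1, which Hedgehog signals induce, were named after their values were seen and ranged from 12.1 to 18.6 CPM and from 287 to 349.6 CPM over the 12 libraries, with overlap between the sedentary groups.

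Ataxin-1 binds the repressor Capicua, and 13 genes of that complex and its targets were examined in the same way. In SCA1 sedentary mice 10 were higher and 3 lower, and the median log2FC was 0.17. An unadjusted p under 0.05 was reached by 1 and 0 of them (5.55% and 4.55% of all genes). Spry4 and Dusp4, feedback inhibitors of the MAP kinase pathway, were at 0.66 and 0.60 (adjusted p = 0.397 and 0.511, edgeR), and Etv1, also a granule cell gene, and Spred2 at −0.42 and −0.08 (adjusted p = 0.651 and 0.844, edgeR). The list gave 0 calls with edgeR in any comparison.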

How the data were processed

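Cerebellar RNA was extracted with TRIzol and RNeasy, depleted of ribosomal RNA and sequenced in pairs from directional libraries. The submitters' processing notes name FastQC 0.11.9, fastp 0.24.0, STAR 2.7.10a and GRCm39, and the annotation release is not given in the sources used here. According to the study's methods, 2 RNA samples of lower integrity had an adjusted fragmentation time and cycle number, and the sources used here do not name these mice. The authors deposited STAR's raw counts of read pairs per gene, without normalization, for 56941 genes and 4 summary lines in each of the 12 tables. STAR counts only pairs that map to 1 place, so a gene with near-identical copies is undercounted.

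The reverse-strand counts were used, and gene names and positions came from GENCODE M39 (56323 genes matched by Ensembl ID, 618 did not). Pairs without a gene on that strand were 39.3% to 58.7% of a library. The filterByExpr filter and TMM normalization of edgeR 4.0.16 (R 4.3.3) were applied, and 1 quasi-likelihood model of the 4 groups was fitted, with Benjamini-Hochberg adjustment over all 20341 genes. CPM were scaled by the TMM factors, and a prior count of 2 was added for log2 CPM. Ratios were compared by two-sided exact permutation. Each group held 3 separate mice, and the counts behind a member (153 to 58143 read pairs per library) limited precision less than the spread between mice did.

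Members and gene lists were chosen with earlier results of these data known. All 10 members are named, and of each other list up to 2 genes higher and 2 lower with the smallest p between the sedentary groups, and any that is called. Some genes that this rule names are not reported here. Alternatives were DESeq2 1.42.0, unstranded counts, RLE size factors, a filter of 1 count in all or of 10 counts in each library, edgeR on the 2 groups compared, chromosome Y genes or bands of mouse numbers as a covariate, no limit on the log2FC, mice 16 and 55 left out, and each mouse left out. The share of pairs without a gene was added as a covariate after the data were seen.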

Additional observations from a re-analysis of the deposited data

How the results depend on the processing

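No member was called under any alternative, 22 of them for each comparison of 2 groups. No paired analysis was possible because every mouse has its own number, shared with no mouse of another group. Several directions rested on mice 16 and 55. Without both, the log2FC of SCA1 sedentary against WT sedentary mice was −0.48 for Gfap, −0.20 for Slc1a2 and −0.22 for Kcnj10. That of SCA1 exercise against WT exercise mice was −0.049 for Gfap, −0.037 for Aqp4, −0.075 for Slc1a2, −0.17 for Hopx and −0.092 for Kcnj10. Between the SCA1 groups Gfap was then at 0.059 and Fabp7 at 0.13, and the log2 ratio of Slc1a2 to Slc1a3 differed by 0.046, against −0.15 with them. Gfap averaged over activity was at −0.27. With bands of mouse numbers as a covariate, which set apart mice 16 and 55, Gfap, Slc1a2 and Kcnj10 were at −0.47, −0.094 and −0.14 between sedentary groups. Gfap, Aqp4, Slc1a2, Hopx and Kcnj10 were at −0.10, −0.093, −0.14, −0.12 and −0.12 between exercise groups, and Gfap averaged over activity at −0.28. With the share of pairs without a gene as a covariate, the same 5 genes were at −0.032, −0.059, −0.063, −0.065 and −0.022 between exercise groups, Gfap was at 0.090 between WT groups and 0.00036 between SCA1 groups, and Slc1a3 at −0.0010 between WT groups. With the chromosome Y covariate Fabp7 was at 0.048 between sedentary groups and Hopx at −0.017 between exercise groups. Slc1a3 between WT groups, near 0 in the main analysis, was at −0.0019 with DESeq2, −0.0020 with RLE, −0.012 with the chromosome Y covariate, −0.0052 with the filter of 1 count in all and −0.025 with unstranded counts, where Kcnj10 was at −0.016. The cause of these shifts was not tested.

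With 1 mouse left out at a time, some signs turned. Between sedentary groups the ranges were −0.50 to 0.39 for Gfap, −0.22 to 0.29 for Slc1a2, −0.24 to 0.36 for Kcnj10, −0.37 to 0.12 for Fabp7 and −0.27 to 0.0065 for S100b. Between exercise groups they were −0.049 to 0.67 for Gfap, −0.037 to 0.093 for Aqp4, −0.075 to 0.26 for Slc1a2, −0.40 to 0.020 for Gdf10, −0.17 to 0.26 for Hopx, −0.098 to 0.38 for Fabp7 and −0.092 to 0.48 for Kcnj10. Between WT groups they were −0.058 to 0.060 for Slc1a3, −0.017 to 0.20 for Gdf10 and −0.082 to 0.090 for Kcnj10. Between SCA1 groups they were −0.57 to 0.57 for Gfap, −0.16 to 0.39 for Slc1a2, −0.49 to 0.11 for Fabp7, −0.26 to 0.57 for Kcnj10 and −0.072 to 0.21 for S100b, and −0.33 to 0.18 for the log2 ratio of Slc1a2 to Slc1a3, the highest without mouse 16. Gfap averaged over activity ranged from −0.025 to 0.41.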
